A study of Mus musculus with 24 samples.

Results

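The genes described here are 10 members of the integrated stress response and the unfolded protein response, Atf4, Ddit3, Ddit4, Xbp1, Hspa5, Trib3, Asns, Chac1, Ppp1r15a and Herpud1. They were taken by symbol from a given list, and all 10 were among the 24421 genes of the count files. The study sequenced RNA of CD45+CD3+CD8+ T cells sorted from pancreas or blood of KC mice and wild-type (WT) B6 mice, and its title places the work in the progression of pancreatic ductal adenocarcinoma. KC is the labels' name for the mouse line, and they give no alleles or Cre driver for it. KC pancreas was represented by 12 libraries, with 3 at 4 weeks of age, 2 at 9 weeks, 3 at 13 weeks, 2 at 20 weeks and 2 at 30 weeks. KC blood was represented by 9 libraries, with 2 at 4 weeks, 1 at 9 weeks, 3 at 13 weeks, 1 at 20 weeks and 2 at 30 weeks. WT pancreas had 1 library at 9 weeks and 1 at 30 weeks, and WT blood had 1 library at 30 weeks. No treatment was given in the labels. Libraries are called by their titles, in which P marks pancreas and B marks blood.

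The integrated stress response starts when kinases that sense amino acid shortage, misfolded protein in the endoplasmic reticulum (ER), double-stranded RNA or heme loss phosphorylate the translation factor eIF2. Most translation then slows while the Atf4 messenger is translated better, and the ATF4 protein switches on genes of amino acid supply and, with its partner CHOP (the product of Ddit3), genes of feedback and cell death. In the unfolded protein response, the kinase PERK feeds into this route, IRE1 splices the Xbp1 messenger into its active form, and ATF6 is released to switch on ER chaperones such as BiP, the product of Hspa5. Both routes are known in T cells, where activation and nutrient limits in tumors engage them. Translation and splicing, which carry much of this control, were not measured by gene counts.

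The promoters of 4 members are shown because they hold sequence elements that name these routes. The sequences are those of RefSeq on GRCm38.p6 (mm10), each 300 bases long from 250 bases before the annotated start to 50 bases from it on, read 5′ to 3′ on the gene's strand. The window of Hspa5 lies at chr2:34771840-34772139 on the plus strand, that of Herpud1 at chr8:94386179-94386478 on the plus strand, that of Chac1 at chr2:119350992-119351291 on the plus strand and that of Asns at chr6:7693160-7693459 on the minus strand. Capitals mark the ER stress element in Hspa5 (CCAAT and CCACG separated by 9 bases), the opposite-strand match to TGATGCAA, the core of the C/EBP-ATF composite element, in Herpud1 and Chac1, and TGATGAAAC, an element described for the asparagine synthetase promoter, in Asns.
Hspa5: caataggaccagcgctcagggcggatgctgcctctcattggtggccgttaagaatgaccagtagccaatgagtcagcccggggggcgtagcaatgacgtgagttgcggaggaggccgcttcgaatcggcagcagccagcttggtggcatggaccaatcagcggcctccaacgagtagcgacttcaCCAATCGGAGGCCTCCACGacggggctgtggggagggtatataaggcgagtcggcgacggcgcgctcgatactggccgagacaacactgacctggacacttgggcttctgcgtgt
Herpud1: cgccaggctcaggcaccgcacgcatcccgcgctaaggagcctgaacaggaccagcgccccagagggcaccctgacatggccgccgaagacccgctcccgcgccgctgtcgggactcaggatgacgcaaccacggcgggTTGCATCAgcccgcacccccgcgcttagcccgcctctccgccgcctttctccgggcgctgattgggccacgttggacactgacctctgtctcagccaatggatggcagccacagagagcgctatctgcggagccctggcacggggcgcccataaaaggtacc
Chac1: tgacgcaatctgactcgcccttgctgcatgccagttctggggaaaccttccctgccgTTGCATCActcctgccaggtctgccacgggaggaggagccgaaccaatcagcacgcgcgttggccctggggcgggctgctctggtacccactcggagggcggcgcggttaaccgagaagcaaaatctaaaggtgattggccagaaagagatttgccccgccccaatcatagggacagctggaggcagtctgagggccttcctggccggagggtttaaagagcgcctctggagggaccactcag
Asns: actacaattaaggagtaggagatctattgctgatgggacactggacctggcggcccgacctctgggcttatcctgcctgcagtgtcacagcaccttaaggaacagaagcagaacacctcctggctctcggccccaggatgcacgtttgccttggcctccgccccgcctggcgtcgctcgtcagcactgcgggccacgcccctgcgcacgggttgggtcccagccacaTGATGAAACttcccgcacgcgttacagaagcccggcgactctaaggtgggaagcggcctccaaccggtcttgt

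All 10 members had a promoter in the RefSeq table, and both strands were searched. The ER stress element was searched only in the form with a gap of 9 bases, and forms with another spacing were not searched. This form was found in 1 of 10 members and in 0.119% of 32851 promoters, 65 bases before the start of Hspa5. TGATGCAA was found in 2 of 10 members and in 0.895% of promoters, 193 bases before the start of Chac1 and 112 bases before that of Herpud1. TGATGAAAC was found in 1 member, 23 bases before the start of Asns, and in 0.247% of promoters. The longer composite element TGATGNAAT, which partly overlaps the TGATGCAA core, was in 0 of 10 members and in 0.965% of promoters. The unfolded protein response element TGACGTGG was in 0 of 10 members and in 0.676% of promoters. TGATGCAA and TGATGAAAC were added after the other motifs had been searched. These matches describe letters in a window and are no measure of binding.

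Each library held between 6352070 and 16716169 counts in genes, with a median of 9602258, so that a gene without a count could still lie at up to 0.472 CPM, the count scaled to a common library total, in the shallowest library, by the limit of 3 counts. Cd3e ranged from 3791 to 15654 CPM in KC libraries and Cd8a from 587 to 3003 CPM, while Cd4 did not exceed 39.4 CPM. Summed transcripts of 25 acinar (enzyme-secreting pancreatic) genes reached 11010 CPM in KC pancreas, with the 3 libraries of 4 weeks highest, and at most 91.6 CPM in KC blood. The acinar regulator Ptf1a was at 0 in all 24 libraries. In KC pancreas the 10 macrophage genes summed to 2.87 to 605 CPM and the 8 fibroblast genes to 0 to 546 CPM (highest in Sample_43P8). The 8 ductal genes there summed to 0.118 to 334 CPM (highest in Sample_133P8). In KC blood these sums reached at most 414, 1.65 and 1.23 CPM. The 12 platelet and erythroid genes went the other way, at 82.9 to 370 CPM in KC blood (median 259) and 7.82 to 166 CPM in KC pancreas (median 12.9). The 10 plasma and B cell genes summed to 1.94 to 367 CPM in KC pancreas and 2.47 to 276 CPM in KC blood. Genes abundant in 1 library also appeared as traces in other libraries. The 24 libraries were grouped by these traces with the number of sets fixed at 2, which gave 2 sets of 12. A trace was detected in 92.7% of libraries of the same set and in 48.3% elsewhere. These shares come from the traces that drew the sets, so they describe the split and do not test it. Set 1 comprised the KC pancreas libraries of 4 and 13 weeks, all 3 WT libraries and, of KC blood, Sample_131B8, Sample_42B8 and Sample_43B8. Set 2 comprised the others. In KC pancreas each age thus lay wholly in 1 set, so that ages compared across sets differ in both. Values within sets are given beside the results where both sets could be fitted. For pancreas against blood, the fits within a set had no age term, and ages within a set were not matched between tissues. The labels do not say that libraries came from separate animals, so p-values measure the spread between these libraries. In such bulk samples, fewer cells of a type and less RNA per cell cannot be told apart.

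The 10 genes fell into an abundant chaperone, 6 genes at moderate to low and scattered levels, and 3 genes close to or at the limit of detection. Ddit3, placed among the 6, held only a few counts in several libraries of both tissues. Per kilobase of exon, the median level in KC pancreas was 60.1 CPM for Hspa5, 11.6 for Atf4, 10.9 for Ddit4, 4.20 for Ppp1r15a, 2.19 for Herpud1, 0.995 for Xbp1, 0.853 for Ddit3 and 0.0387 for Asns. In KC blood the order was Hspa5 at 41.2 CPM per kilobase, Xbp1 at 11.3, Ddit4 at 10.8, Herpud1 at 10.1, Atf4 at 7.29, Ppp1r15a at 0.513, Ddit3 at 0.159 and Asns at 0.0223. The median of Chac1 and Trib3 was 0 in both tissues. Hspa5 was the highest of the 10 genes in 9 of 12 KC pancreas libraries and in 7 of 9 KC blood libraries. Neighbours in the middle of the order changed places from library to library: Atf4 exceeded Ddit4 in 6 of 12 KC pancreas libraries, and Xbp1 exceeded Ddit4 in 4 of 9 KC blood libraries. In KC blood, Atf4 exceeded Ppp1r15a in 9 of 9 libraries.

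**Figure D1:**
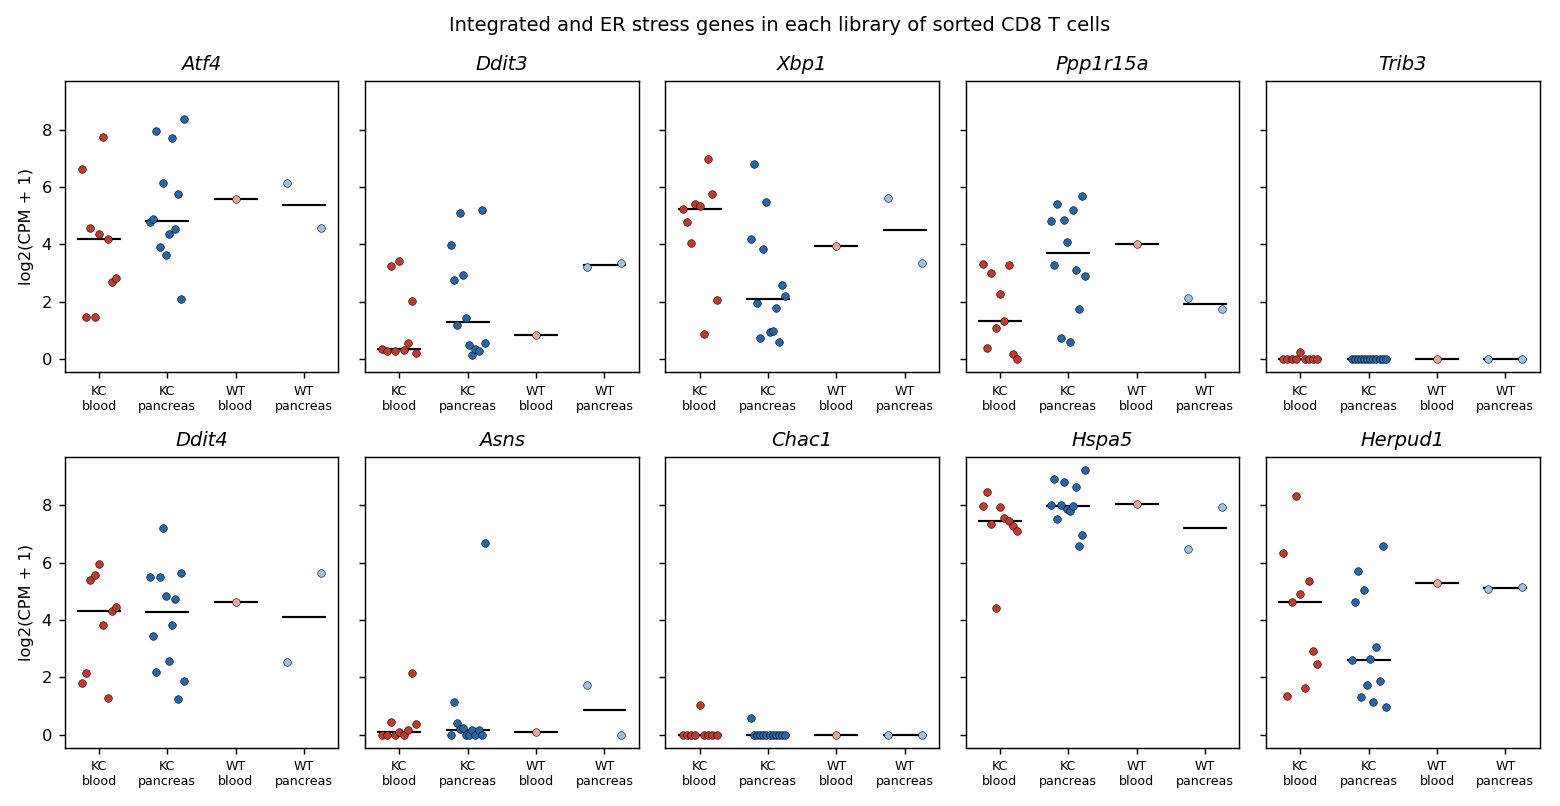
Level of each gene as log2(CPM + 1) on a linear axis, with 1 point per library (9 KC blood, 12 KC pancreas, 1 WT blood, 2 WT pancreas) and a black bar at the group median. Points of most genes scatter over several log2 units within a KC group, while Trib3 and Chac1 lie at or near 0. Asns stands out in 1 KC pancreas library at 101 CPM.

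Pancreas was compared with blood in the 21 KC libraries with edgeR's quasi-likelihood test, with age as a factor and Benjamini-Hochberg adjustment over 11059 genes. Of the 10 members 8 had enough counts to be tested, and 0 of these 8 passed an adjusted p under 0.05, where 0.0904% of all tested genes did. At an unadjusted p under 0.05 there were 2 of 8 members, Ppp1r15a and Hspa5, against 9.85% of all tested genes. The 8 members had a median log2 fold change of 1.26, with 6 above 0 and 2 below. The 6 and the median include Asns, which had enough counts to be tested only with Sample_303P8, Sample_302B8 and Sample_42P8 all included. All tested genes had a median of -0.12, with 45.41% above 0. DESeq2 called 1 of the 7 members to which it gave an adjusted p, Ppp1r15a, with 5.71% of the genes it tested called. The spread between libraries was large, with a biological coefficient of variation of 1.24 in this fit.

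Atf4 encodes the transcription factor at the centre of the integrated stress response. Its level in KC pancreas ranged from 3.30 to 329 CPM with a median of 27.3 CPM, and in KC blood from 1.73 to 216 CPM with a median of 17.2 CPM. The WT libraries lay inside these ranges, at 70.2 CPM in Sample_W1P8, 22.5 CPM in Sample_W3P8 and 47.1 CPM in Sample_W3B8. Single libraries were far above the rest in both tissues: 329 CPM in Sample_303P8, 248 in Sample_43P8, 206 in Sample_133P8 and 216 in Sample_133B8. The groups overlapped, and in 5 of the 9 matches by title number the pancreas library was the higher. The log2 fold change was 1.53 ± 0.89 (SE; 12 and 9 libraries, edgeR adjusted p = 0.603). It was 1.22 within set 1 and 0.99 within set 2.

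Ddit3 encodes CHOP, the partner of ATF4 in the late, death-promoting arm of the response. It ranged from 0.109 to 35.7 CPM in KC pancreas, with a median of 1.46 CPM, and from 0.139 to 9.62 CPM in KC blood, with a median of 0.273 CPM. WT pancreas held 8.17 and 9.10 CPM and WT blood 0.778 CPM. In KC pancreas, 3 of 12 libraries exceeded all 9 KC blood libraries and 1 lay below all of them. That library, Sample_133P8, and the lowest KC blood library, Sample_303B8, each had 1 count, so their order reflects only library size. The KC blood median was that of Sample_42B8, which had 3 counts, so low Ddit3 levels rest on few counts. The log2 fold change was 1.5 ± 1.41 (SE, edgeR adjusted p = 0.794), and without Sample_302P8, which holds the highest value, it was 0.38. It was 3.24 within set 1 and 2.40 within set 2. Exons of Ddit3 share 68 bases with Mars on the opposite strand, and whether counting used strand is not given in the sources used here.

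Xbp1 encodes the transcription factor that IRE1 activates by splicing, which drives ER expansion in secretory cells. It was lower in pancreas than in blood by its medians: 3.23 CPM in KC pancreas, with a range of 0.515 to 112 CPM, and 36.8 CPM in KC blood, with a range of 0.811 to 125 CPM. WT values were 48.4 and 9.26 CPM in pancreas and 14.4 CPM in blood. The groups overlapped, since Sample_42P8 at 112 CPM and Sample_131P8 at 43 CPM were as high as most blood libraries, and Sample_133B8 and Sample_303B8 were low at 0.811 and 3.20 CPM. The log2 fold change was -1.69 ± 1.0 (SE, edgeR adjusted p = 0.614), and it was -1.08 within set 1 and -3.14 within set 2. Sample_42P8 was also the library with 11010 CPM of acinar transcripts, a cell type that depends on Xbp1, and the part of those transcripts in its Xbp1 level was not tested.

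Ppp1r15a encodes GADD34, the phosphatase subunit that removes the phosphate from eIF2 and so ends the response. It had the largest fold change of the 8 tested members in the fit of 21 libraries. KC pancreas ranged from 0.517 to 50.3 CPM with a median of 12.3 CPM, and KC blood from 0 to 8.82 CPM with a median of 1.51 CPM. Of the 12 KC pancreas libraries 6 lay above all 9 KC blood libraries, while Sample_132P8 and Sample_94P8 were low at 0.517 and 0.657 CPM. Sample_303B8, the only library without a count, allows up to 0.417 CPM. In WT the single values ran the other way, untested, with 3.32 and 2.31 CPM in pancreas and 15.1 CPM in blood.

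The log2 fold change of Ppp1r15a in KC libraries was 2.68 ± 1.18 (SE, 95% interval 0.30 to 5.05), a 6.39-fold difference, with an edgeR adjusted p of 0.439. It was 2.26 within set 1 and 2.42 within set 2, and between 2.17 and 3.53 when each library was left out in turn. DESeq2 gave 2.68 ± 0.85 with an adjusted p of 0.0374, so the call depends on the tool. A higher level in pancreas was seen in 6 of 9 matches by title number. The 14 immediate early genes of the listed set, of which several are known to be induced quickly during tissue handling, summed to between 635 and 3323 CPM in KC pancreas and between 161 and 902 CPM in KC blood. Sample_302P8 held both the highest sum, 3323 CPM, and the highest Ppp1r15a level, 50.3 CPM. Sample_133P8, with the lowest sum in KC pancreas, 635 CPM, held 36 CPM of Ppp1r15a, and Sample_132P8, with a sum of 1693 CPM, held 0.517 CPM. The part of tissue handling in the Ppp1r15a difference was not tested. Exons of Ppp1r15a share 12 bases with Tulp2 on the opposite strand.

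**Figure D2:**
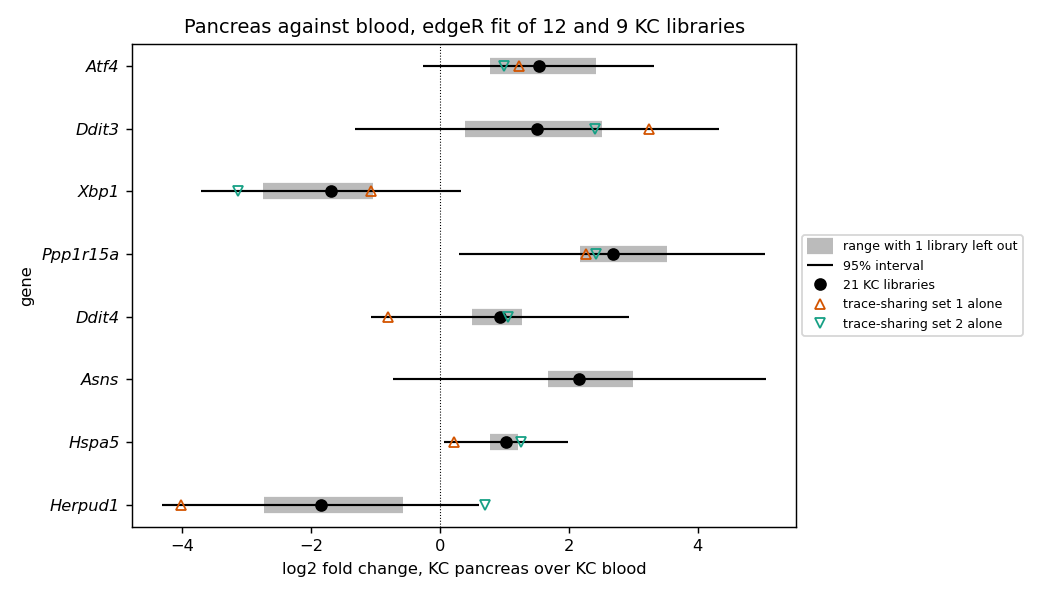
Log2 fold change of KC pancreas over KC blood for the 8 tested genes (x axis, log2 units). Black points and lines give the edgeR estimate and its 95% interval over 21 libraries, and grey bars the range when 1 library is left out. Open triangles give the fit within each trace-sharing set, which had no age term. The intervals of Ppp1r15a and Hspa5 lie above 0 before adjustment, and the estimates for Herpud1 (-4.02 and 0.70) and Ddit4 (-0.81 and 1.06) have opposite signs in the sets.

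Trib3 encodes a pseudokinase that is induced by ATF4 and CHOP and restrains both. It had 3 counts in Sample_132B8, or 0.183 CPM (95% exact Poisson interval 0.0377 to 0.534, counting error only), and 0 counts in the other 23 libraries, which allows 0.179 to 0.472 CPM by library. It was too low to be tested in any comparison.

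Ddit4 encodes REDD1, an inhibitor of the growth kinase mTORC1 that responds to ATF4, hypoxia and glucocorticoids. Its medians were close, at 19.2 CPM in KC pancreas (range 1.34 to 147) and 18.9 CPM in KC blood (range 1.42 to 61.4). WT pancreas held 4.84 and 49.1 CPM and WT blood 23.6 CPM. The high value was 147 CPM in Sample_95P8, and the 20-week libraries Sample_205P8 and Sample_205B8 were the lowest of their tissues, at 1.34 and 1.42 CPM. Pancreas differed from blood by a log2 fold change of 0.93 ± 1.0 (SE, edgeR adjusted p = 0.828), with -0.81 within set 1 and 1.06 within set 2.

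Asns encodes asparagine synthetase, a classical target of ATF4 when amino acids are short. It reached 101 CPM in 1 library, Sample_303P8 (642 counts, 95% exact Poisson interval 93.4 to 109 CPM), and did not exceed 3.44 CPM in any other. It had no count in 10 of 24 libraries, which allows up to 0.239 to 0.409 CPM in those. Its coefficient of variation over the 21 KC libraries was 4.30, and 99.8% of tested genes had a lower one. The next values were 3.44 CPM in Sample_302B8 and 2.28 CPM in Sample_W1P8. Asns itself met the rule for trace genes, being high in 1 library and at low counts elsewhere, and was left out when the sets were drawn. Sample_303P8 also held the highest Atf4 level, 329 CPM, and the highest Hspa5 level, 603 CPM.

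The log2 fold change of Asns in pancreas against blood was 2.16 ± 1.44 (SE, edgeR adjusted p = 0.671). Without Sample_303P8, and likewise without Sample_302B8 or Sample_42P8, the gene no longer had enough counts to be tested. Chac1 encodes an enzyme that degrades glutathione and is induced by ATF4. It had 17 counts in Sample_132B8, or 1.04 CPM (95% exact Poisson interval 0.603 to 1.66), 6 counts in Sample_41P8, or 0.489 CPM (0.179 to 1.06), and 0 counts in the other 22 libraries. Sample_132B8 thus held the only Trib3 counts, the highest Chac1 level and, among KC blood, the highest Ddit3 (9.62 CPM) and Ddit4 (61.4 CPM) levels. At 16420759 counts in genes it was also the deepest KC library, and the part of depth in its Trib3 and Chac1 detection was not tested.

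Hspa5 encodes BiP, the main ER chaperone and the sensor that holds PERK, IRE1 and ATF6 inactive, and its promoter with the ER stress element is printed above. It was detected in every library at 20.2 CPM or more. KC pancreas ranged from 94.3 to 603 CPM with a median of 254 CPM, and KC blood from 20.2 to 356 CPM with a median of 174 CPM. WT values were 88.6 and 243 CPM in pancreas and 261 CPM in blood. The low value of 20.2 CPM belonged to Sample_131B8 alone, since the other 8 KC blood libraries held 136 CPM or more. The groups overlapped, with 4 of 12 KC pancreas libraries above all KC blood libraries.

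The coefficient of variation of Hspa5 over the 21 KC libraries was 0.559, and only 5.34% of tested genes had a lower one. Its log2 fold change was 1.03 ± 0.48 (SE, 95% interval 0.06 to 1.99), a 2.04-fold difference, with an edgeR adjusted p of 0.475. It was 0.21 ± 0.92 within set 1 and 1.25 ± 0.44 within set 2. Without the 4-week libraries, which hold most of the acinar transcripts, it was 1.60 ± 0.54 (edgeR adjusted p = 0.234). The pancreas library was the higher in 5 of 9 matches by title number.

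Herpud1 encodes an ER membrane protein that aids the disposal of misfolded proteins, and its promoter holds the TGATGCAA core. KC pancreas ranged from 0.945 to 94.5 CPM with a median of 5.11 CPM, and KC blood from 1.54 to 320 CPM with a median of 23.6 CPM. The WT libraries were alike, at 33.2 and 34.2 CPM in pancreas and 38.2 CPM in blood. Sample_131B8 stood apart at 320 CPM (95% exact Poisson interval 309 to 332), and it was the same library that had the lowest Hspa5. Its log2 fold change was -1.85 ± 1.22 (SE, edgeR adjusted p = 0.666), -0.58 without Sample_131B8, -4.02 within set 1 and 0.70 within set 2. The direction therefore differed between the fits within sets, which had no age term.

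**Figure D3:**
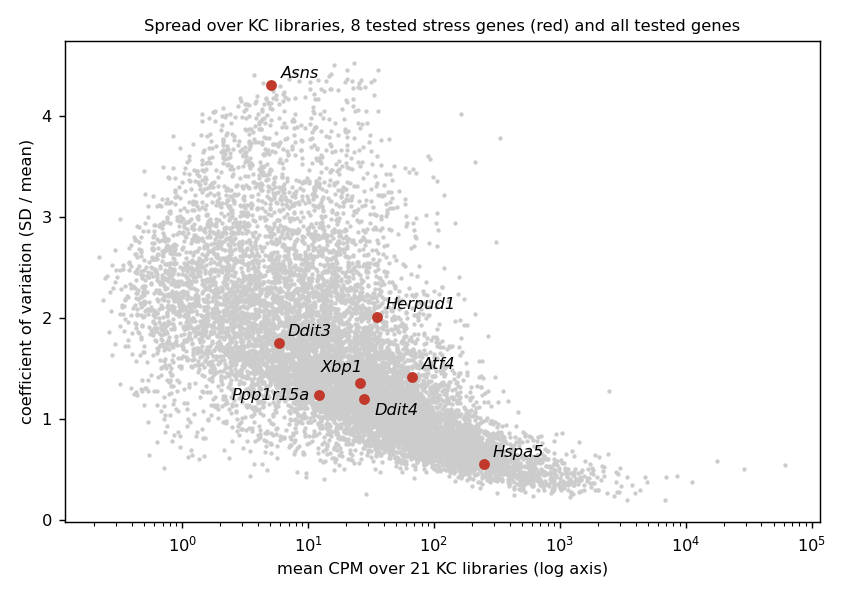
Coefficient of variation (SD over mean, linear axis) against mean CPM (log axis) over the 21 KC libraries, with the 8 tested stress genes in red and all 11059 tested genes in grey. Hspa5 has a low coefficient of variation, 0.559, at a mean of 250 CPM, Asns a high one, 4.30, at a mean of 5.11 CPM, and the others lie between 1.2 and 2.01.

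A few libraries held the highest values of several members. The pair of 30-week KC pancreas libraries divided the members: Sample_302P8 held the highest KC pancreas values of Ddit3, Ppp1r15a and Herpud1 (35.7, 50.3 and 94.5 CPM) together with the lowest Atf4 value (3.30 CPM). Sample_303P8 held the highest values of Atf4, Hspa5 and Asns (329, 603 and 101 CPM) together with the lowest Herpud1 value (0.945 CPM). In Sample_302P8 the 10 macrophage genes listed also summed to 605 CPM, the highest of all 24 libraries, against a KC pancreas median of 46.2 CPM, and the 8 T cell genes to 6342 CPM, the lowest in KC pancreas. Sample_303P8 had 65.2 and 10817 CPM of these. Their part in the values of these libraries was not tested.

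**Figure D4:**
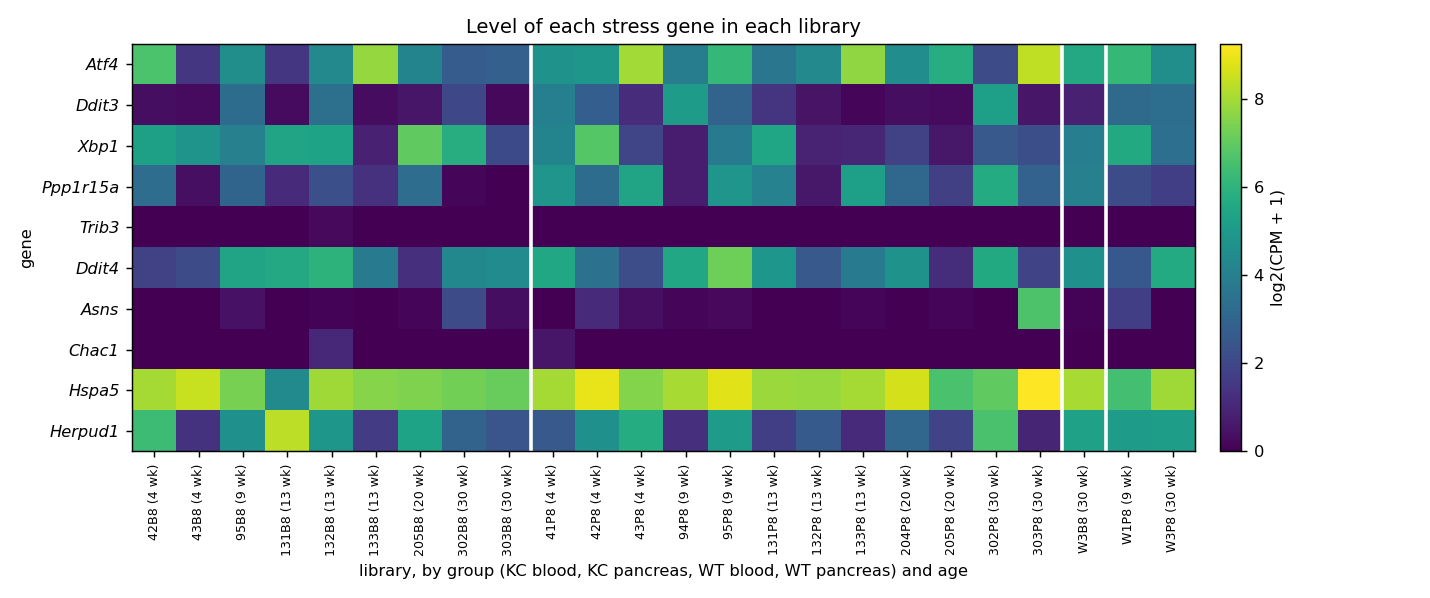
Color gives log2(CPM + 1) of each gene (rows) in each library (columns, with age in weeks), grouped by white lines into KC blood, KC pancreas, WT blood and WT pancreas and ordered by age in each group. Hspa5 is bright in nearly every column with a dimmer cell in Sample_131B8, and Asns is bright in Sample_303P8 alone. Sample_302P8 is bright for Ddit3, Ppp1r15a and Herpud1 where Atf4 is dark.

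Of 16 relations between pairs of members in the 2 KC tissues, chosen from pathway knowledge, 9 could be computed, since both genes needed a count in at least 6 libraries. After Benjamini-Hochberg adjustment over these, 0 passed by Pearson's r or Spearman's rho. At an unadjusted p under 0.05 there was 1 by Pearson's r, Atf4 with Ddit3 in KC pancreas, and 1 by Spearman's rho, Atf4 with Asns in KC pancreas. Atf4 with Ddit3 had a Pearson r of -0.583 (permutation p = 0.0473, adjusted p = 0.191) and a Spearman rho of -0.476 (permutation p = 0.12, adjusted p = 0.474), over 12 libraries on the log2(CPM + 1) scale. Without the 2 libraries of most extreme Atf4 level r was -0.554, within set 1 it was -0.381 and within set 2 -0.688. Atf4 with Asns in KC pancreas had r = 0.53 (permutation p = 0.0636, adjusted p = 0.191) and rho = 0.732 (permutation p = 0.00979, adjusted p = 0.0881). Without the 2 libraries of most extreme Atf4 level, r was 0.186, so that the Pearson value rests on those libraries. Asns had no count in 5 of these 12 libraries and only a few counts in most others. The Spearman value thus ranks mainly ties at 0 and very low counts.

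Hspa5 with Herpud1 in KC blood had r = -0.625 (exact permutation p = 0.0632, adjusted p = 0.191) and rho = -0.267 (exact permutation p = 0.493, adjusted p = 0.555) over 9 libraries. Without the 2 libraries of most extreme Hspa5 level, r was 0.618, so the relation rests on Sample_131B8 and Sample_43B8. Xbp1 with Hspa5, the chaperone gene downstream of it, had r = 0.404 in KC pancreas (permutation p = 0.193, adjusted p = 0.434) with rho = 0.392 (permutation p = 0.211, adjusted p = 0.474). The other 5 relations had Pearson adjusted permutation p-values between 0.783 and 0.905.

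Age trends were fitted as a slope per 10 weeks within each KC tissue. In KC pancreas, 7 members had enough counts, and 0 of 7 passed edgeR's adjusted p under 0.05, where 0.293% of 9555 tested genes did. At an unadjusted p under 0.05 there were 0 of 7 members and 8.95% of all tested genes, and DESeq2 called 0 of 7 members and 5.61% of the genes it tested. The largest slope was that of Xbp1, -1.24 ± 0.72 log2 units per 10 weeks (edgeR adjusted p = 0.684), with a mean of 44.0 CPM at 4 weeks (2.84 to 112, 3 libraries) and 4.28 CPM at 30 weeks (3.62 and 4.95). The acinar transcripts were also highest at 4 weeks, and their part in this slope was not tested. With the set as a term, the Xbp1 slope was -0.25. The other 6 slopes lay between -0.18 (Ddit4) and 0.30 (Herpud1), and 1 of the 30-week libraries decided the sign in several: without Sample_302P8 the Ddit3 slope was -2.24 and the Herpud1 slope -1.63, and without Sample_303P8 the Atf4 slope was -1.15.

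In KC blood, all 7 tested members had slopes below 0, and 0 of 7 passed edgeR's adjusted p under 0.05, as did 0% of 9933 tested genes. At an unadjusted p under 0.05 there were 0 of 7 members and 8.76% of all tested genes, and DESeq2 called 0 of the 5 members to which it gave an adjusted p and 3.68% of such genes. The median slope was -0.66 over the members and -0.12 over all tested genes, of which 43.88% had slopes above 0. Atf4 had -1.72 ± 0.90 log2 units per 10 weeks (edgeR adjusted p = 0.588), with 97.5 and 1.75 CPM at 4 weeks, 22.5 CPM at 9 weeks, 1.73 to 216 CPM at 13 weeks, 17.2 CPM at 20 weeks and 5.43 and 6.12 CPM at 30 weeks. Hspa5 had -0.66 ± 0.39 (edgeR adjusted p = 0.65), with 252 and 356 CPM at 4 weeks and 155 and 136 CPM at 30 weeks. Ppp1r15a had -1.49 ± 1.12 (edgeR adjusted p = 0.733), and both 30-week libraries were near 0, at 0.132 CPM and no count. With the set as a term the slopes of Ddit4, Xbp1 and Herpud1 were 0.02, 0.70 and 0.10, so the shared sign does not hold under it.

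The slopes of the tissues were compared by the interaction of tissue and age. Of 8 tested members 0 passed edgeR's adjusted p under 0.05, where 0.0543% of 11059 tested genes did, and 0 of 8 had an unadjusted p under 0.05, against 8.33% of all tested genes. DESeq2 called 0 of 7 such members and 2.78% of such genes. The median difference, pancreas minus blood, was 0.74 log2 units per 10 weeks over the members and 0.07 over all tested genes. Atf4 had a difference of 1.97 ± 1.03 (edgeR adjusted p = 0.633), which was 0.61 without Sample_303P8.

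**Figure D5:**
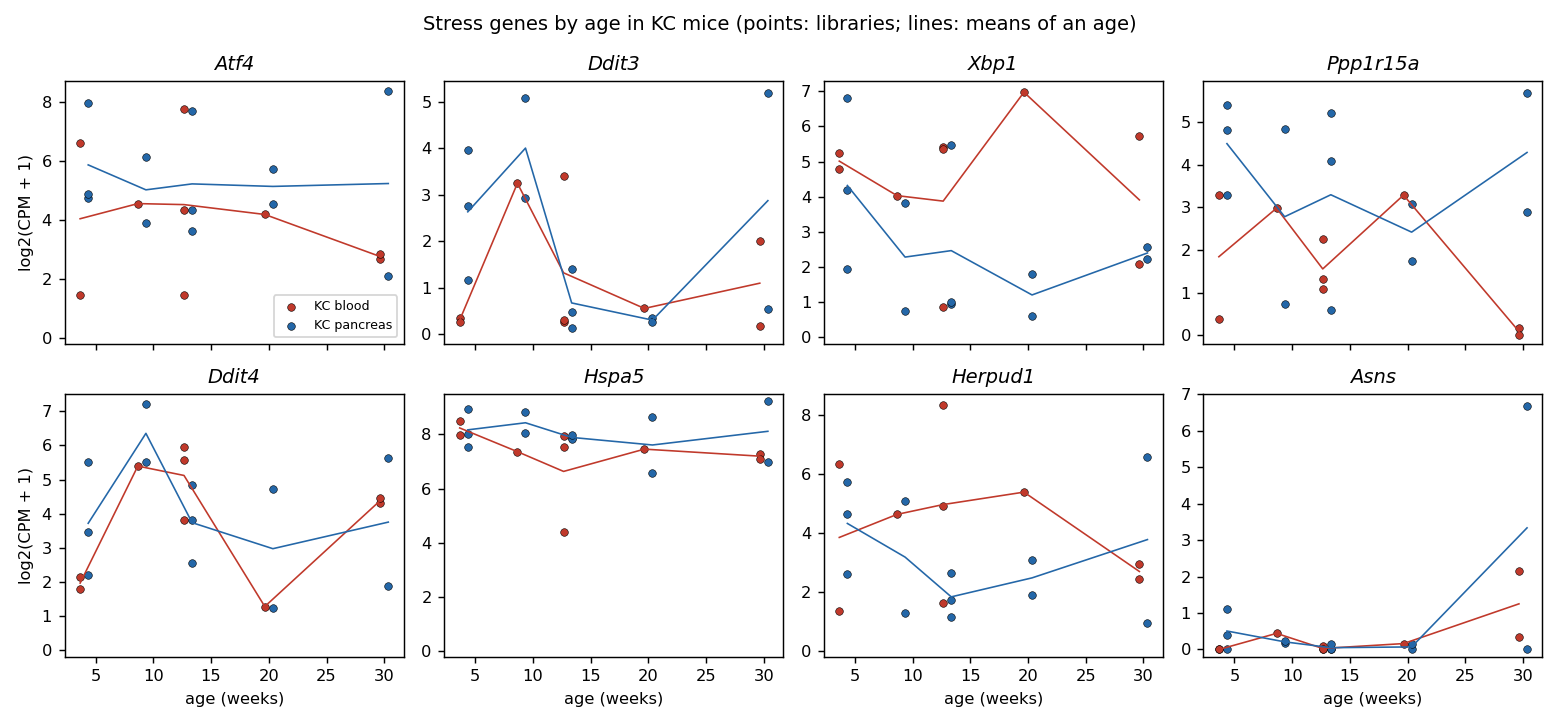
Level of 8 genes as log2(CPM + 1) against age in weeks in KC blood (red) and KC pancreas (blue), with 1 point per library, lines joining the mean of each age and a small sideways shift between tissues. Libraries of 1 age differ as much as libraries of different ages, as for Atf4 in pancreas at 30 weeks (3.30 and 329 CPM), and Ppp1r15a in blood lies near 0 at 30 weeks.

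KC was compared with WT in pancreas at 9 and 30 weeks, where WT had 1 library of each age. Both WT libraries lay in trace-sharing set 1 and all KC pancreas libraries of these ages in set 2. Genotype and set therefore cannot be told apart in this comparison. Of 8 tested members 0 passed edgeR's adjusted p under 0.05, where 0.226% of 12374 tested genes did, and 0 of 8 had an unadjusted p under 0.05, against 5.79% of all tested genes. DESeq2 called 1 of 8 members, Asns, with 1.69% of the genes it tested called. Asns stood at 0.131, 0.183, 0 and 101 CPM in the KC libraries of these ages and at 2.28 and 0 CPM in WT, so the KC level comes from Sample_303P8. Herpud1 was at 33.2 and 34.2 CPM in WT, and at 1.45, 32.3, 94.5 and 0.945 CPM in the KC libraries of these ages. Ppp1r15a was at 3.32 and 2.31 CPM in WT, and at 0.657, 27.5, 50.3 and 6.45 CPM in those KC libraries. WT pancreas also held 4758 and 1322 CPM of acinar transcripts, against 0.394 to 59.0 CPM in the KC libraries of these ages, and their part in these values was not tested.

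In blood at 30 weeks, 2 KC libraries were set against 1 WT library, whose spread was taken to be that of the KC libraries. The WT library lay in trace-sharing set 1 and both KC libraries in set 2, so genotype and set cannot be told apart here either. Of 9 members that passed the filter, Chac1 had no count in these 3 libraries, so its result was fixed. Of the other 8 members 0 passed edgeR's adjusted p under 0.05, as did 0% of 12496 tested genes, and DESeq2 called 0 of the 7 members to which it gave an adjusted p and 0.0996% of such genes. At an unadjusted p under 0.05 there was 1 of 8 members, Ppp1r15a, against 2.83% of all tested genes. It had 253 counts (15.1 CPM) in WT blood, and 1 count (0.132 CPM) and 0 counts in the KC libraries. Atf4 was at 47.1 CPM in WT and at 5.43 and 6.12 CPM in KC, and Herpud1 at 38.2 CPM in WT and at 6.62 and 4.45 CPM in KC.

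The WT tissues at 30 weeks offered 1 library each, Sample_W3P8 and Sample_W3B8, so their differences have no replicate check. Ddit3 had 114 counts in pancreas and 13 in blood, a log2 ratio of CPM of 3.55 (95% exact Poisson interval 2.72 to 4.50, counting error only). Ppp1r15a had 29 counts in pancreas and 253 in blood, a log2 ratio of -2.71 (-3.32 to -2.15), which is the opposite direction to the KC median. Ddit4 had a log2 ratio of 1.06 and Atf4 of -1.07. Hspa5 and Herpud1 were nearly level between these libraries, with log2 ratios of -0.10 and -0.16.

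The other genes of the pathway were taken from 3 lists, and 0 of their genes passed edgeR's adjusted p under 0.05 in any of the 6 comparisons. In KC pancreas against blood, the eIF2 kinases and eIF2B subunits had 6 of 11 tested genes with positive log2 fold changes (median 0.03), the ATF4 branch 17 of 27 (median 0.30) and the IRE1 and ATF6 branch 23 of 36 (median 0.14), beside a median of -0.12 over all tested genes. Of all tested genes 45.41% had positive log2 fold changes. At an unadjusted p under 0.05 there were 0 of 11, 2 of 27 and 0 of 36 genes, against 9.85% of all tested genes. The 2 were Atf3 and Vegfa, which passed the filter through a few pancreas libraries and also count among the 17 positive genes. DESeq2 called 0 of 10, 1 of 20 (Slc7a5, an amino acid transporter) and 0 of 26 genes to which it gave an adjusted p, against 5.71% of such genes. In the KC pancreas age trend DESeq2 called 1 of 10, 0 of 18 and 1 of 27 genes of these lists (Eif2b4 and Syvn1), against 5.61%. In the KC blood trend it called 0 of 11, 3 of 20 and 0 of 31 (Aldh18a1, Psph and Stc2), against 3.68%. For the difference of the trends it called 1 of 10, 1 of 20 and 0 of 28 (Eif2b1 and Psph), against 2.78%. These DESeq2 calls were singled out with their values known. DESeq2 called none in KC against WT in either tissue. The genes of lowest edgeR p were named by rule. Atf3, a stress-induced repressor downstream of ATF4, was at 0 in 6 of 9 KC blood libraries and at most 0.278 CPM there, and it ranged from 0 to 31.7 CPM in KC pancreas with a median of 0.12 CPM. Its edgeR adjusted p was 0.113, and without Sample_131P8, Sample_302P8 or Sample_43P8 it had too few counts to be tested. Vegfa, a secreted growth factor for vessels, was at 0 in 5 of 9 KC blood libraries and at most 0.179 CPM there, and ranged from 0 to 26.6 CPM in KC pancreas with a median of 0.202 CPM (edgeR adjusted p = 0.453). Without Sample_302P8, Sample_303P8 or Sample_42P8 it had too few counts to be tested. Both genes passed the filter through a few pancreas libraries, so no fold is given.

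Eif2ak2, which encodes the kinase PKR that senses double-stranded RNA, had a log2 fold change of -2.57 ± 1.29 (edgeR adjusted p = 0.513), and Eif2b1, a subunit of the eIF2 exchange factor, had -1.46 ± 1.03 (edgeR adjusted p = 0.691). Both had the opposite sign within set 2, at 1.80 and 0.05. Dnajb9, an ER co-chaperone of BiP, had 1.30 ± 0.68 (edgeR adjusted p = 0.536) with medians of 84.7 CPM in KC pancreas and 56.8 CPM in KC blood. Wfs1, an ER membrane protein, had 2.44 ± 1.33 (edgeR adjusted p = 0.559). Its medians were very low, at 0.434 CPM in KC pancreas (0 to 73.3) and 0.203 CPM in KC blood (0 to 7.3). The summed level of the 37 genes of the IRE1 and ATF6 list was 2326 to 4761 CPM in KC pancreas and 2390 to 4004 CPM in KC blood, and that of the 36 genes of the ATF4 list was 262 to 1703 and 632 to 1576 CPM.

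Likeness of pattern was taken as Spearman's rho of CPM over the 24 libraries with the other 11058 genes tested in pancreas against blood, as a description, since the libraries share depth, traces and tissue. The gene most like Asns was Trip4 (rho = 0.818), that of Ddit3 was Madd (0.815), that of Ppp1r15a was Csrnp1 (0.808), that of Ddit4 was Ggta1 (0.788), that of Atf4 was Crtc2 (0.740), that of Hspa5 was Gm13212 (0.737), that of Herpud1 was Cyb5r3 (0.736) and that of Xbp1 was Cln6 (0.707). Asns had no count in 10 of 24 libraries and few counts in most others, so its rho ranks mainly ties and very low counts. The highest rho between members was 0.53 for Ddit3 and Ddit4, followed by 0.43 for Xbp1 and Herpud1 and 0.41 for Atf4 and Ppp1r15a.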

How the data were processed

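RNA of sorted CD8 T cells was sequenced in 24 libraries. The deposited files hold counts of reads per gene, which the authors made with TopHat, SAMtools and HTSeq on mm10, with DESeq also named, per the submitters' processing notes; versions and strand use are not given in the sources used here. Reads given to no gene (5 tallies a file) were left out, and between 11.7% and 32.5% of a library's entries lay in genes. CPM was computed from the counts in genes. Counts were tested with edgeR 4.0.16 (TMM, filterByExpr with a minimum count of 10, robust quasi-likelihood F-test, two-sided, Benjamini-Hochberg over all tested genes, threshold 0.05) in R 4.3.3, with DESeq2 1.42.0 as an alternative; the scripts were tested on simulated data. Genes DESeq2 gave no adjusted p stayed out of its counts. Correlations used log2(CPM + 1), with exact permutation for 9 libraries and 100000 resamples for 12, two-sided. Intervals of single libraries are 95% exact Poisson intervals, and a count of 0 allows 3 counts. Both cover counting error only. Exon lengths and overlaps came from GENCODE on GRCm38; no transcript of another gene matched a member over 200 bases or more at 90% identity.

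Each library's group and age are those its labels state; the design text does not list the 9-week age that the labels give. All 10 members are named. Of the wider lists, genes that passed would be named, and otherwise the 2 of lowest p in pancreas against blood; for likeness, the most similar gene of each member is given. The members and lists were chosen with earlier results of these data known. Alternatives were RLE scaling, no count filter, DESeq2, the title number as a replicate block and the trace-sharing set as a term or alone. Others were no age term, and leaving out the 4-week libraries or each library. The fits of a set alone also had no age term.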

Additional observations from a re-analysis of the deposited data

Results flagged for a closer look

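Within the 9 KC blood libraries, 6 of the 10 members had 1 library whose gap to the others was above Dixon's 95% critical value, where chance alone flags about 1 in 20 groups of normal values. CPM values are not normal: of 11058 genes tested in pancreas against blood with a count in KC blood, 37.6% had such a library, and of the 8 tested members 4 did. The other 2, Trib3 and Chac1, were at 0 in 8 of 9 libraries, which fixed the outcome. The libraries were Sample_133B8 for Atf4 (216 CPM), Sample_205B8 for Xbp1 (125 CPM), Sample_131B8 for Herpud1 (320 CPM), Sample_302B8 for Asns (3.44 CPM) and Sample_132B8 for Chac1 (1.04 CPM) and Trib3 (0.183 CPM). The Trib3 value rests on 3 counts and the Chac1 value on 17 counts, and nearly all other libraries were at 0 for these genes. In every case the library was the highest of its group, and 5 different libraries were involved. The test was not run on the 12 KC pancreas libraries, and the WT groups were too small for it.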

How the results depend on the processing

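The members called were 0 in each comparison under edgeR with RLE scaling, in every fit without 1 library and, where run, within sets and under the replicate block. Exceptions were DESeq2, with 1 member in pancreas against blood (Ppp1r15a) and 1 in KC against WT in pancreas (Asns), and the age trend in KC pancreas without the count filter, with 1 (Asns, adjusted p = 0.0359). Counts over all genes moved more. In pancreas against blood 10 genes passed (8 higher, 2 lower), against 34 without the filter, 480 with DESeq2 (166 higher, 314 lower), 65 without the age term, 4 without the 4-week libraries, 37 in set 1, 5 in set 2 and 6 to 21 without 1 library (fewest without Sample_302P8, most without Sample_131B8). In the KC pancreas age trend 28 passed (4 higher, 24 lower), against 686 without the filter, 422 with DESeq2 (124 higher, 298 lower), 0 with the set as a term, 0 without the 4-week libraries and 10 to 31 without 1 library. In KC blood 0 passed, against 102 without the filter, 317 with DESeq2 and 0 to 12 without 1 library. For the difference of the trends 6 passed, against 0 with RLE scaling, 242 with DESeq2, 1 with the set as a term and 0 to 13 without 1 library. For KC against WT in pancreas 28 passed (1 higher, 27 lower), against 158 with DESeq2 (114 higher, 44 lower) and 4 to 29 without 1 library, and in blood 0, against 11 and 0 to 2. RLE scaling shifted the median of all genes by -0.11 in the KC blood trend and 0.20 in KC against WT in blood. The cause of these differences was not tested.

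Of 597 log2 or r values without 1 library 26 changed sign, and of 246 under other alternatives 16 did. In pancreas against blood these were Ddit4 in set 1 (-0.81) and, in set 2, Herpud1 (0.70), Eif2ak2 (1.80) and Eif2b1 (0.05). With the set as a term the slopes of Ddit3 in KC pancreas (-0.46) and of Ddit4 (0.02), Xbp1 (0.70) and Herpud1 (0.10) in KC blood changed sign. In KC blood, r changed sign in set 2 for Atf4 with Ddit3 (-0.184), Xbp1 with Hspa5 (0.226) and Hspa5 with Herpud1 (0.4), and without the 2 farthest libraries for Ddit3 with Ppp1r15a (-0.229) and Hspa5 with Herpud1 (0.618); in KC pancreas it did in set 1 for Hspa5 with Herpud1 (0.134). Without 1 library, KC pancreas slopes ran from -1.15 to 0.81 for Atf4, -2.24 to 0.52 for Ddit3, -1.12 to 0.11 for Ddit4, -0.25 to 0.31 for Hspa5, -0.83 to 0.25 for Ppp1r15a and -1.63 to 0.75 for Herpud1. KC blood slopes ran from -1.43 to 0.17 for Ddit3, -0.57 to 0.14 for Ddit4 and -0.42 to 0.27 for Xbp1. Differences of the trends ran from -1.91 to 1.68 for Ddit3, -0.88 to 0.38 for Ddit4 and -3.78 to 1.85 for Asns.

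Libraries sharing a title number did not deviate together: over 7 pairs, r lay between -0.0561 and 0.00912, and 2 libraries matched their own number best. With this number as a replicate block, 14 genes passed in pancreas against blood and 0 for the difference of the trends, Ppp1r15a had 3.31 (adjusted p = 0.97), and Ddit4 (-0.33) and Asns (-1.65) changed sign in the difference of the trends.

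Levels within a group differed widely, for example 207-fold for Herpud1 in KC blood, depth limits Trib3, Chac1 and Asns, and WT had 3 libraries.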
